A study of Mus musculus with 12 samples.

Results

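The transcripts of 8 receptor genes of natural killer (NK) cells were followed in mouse breast tumors: Klra7, Klrb1c, Klrc1, Klrc2, Klrd1, Klrg1, Klrk1 and Ncr1. They were picked by gene symbol from the 750 genes of an nCounter cancer immune panel, on which color-coded probes are hybridized to RNA and counted one by one without amplification, and all 8 were on it. Tumors of the K14-Cre;Brcaf/fTrp53f/f model, a model of triple negative breast cancer in which Cre under the keratin 14 promoter deletes a Brca gene (Brca1 in the methods) and Trp53 in epithelial cells, were grown in mammary fat pads of syngeneic female FVB/129P2 mice, so that every host kept its own immune system. Mice were injected intraperitoneally with DMSO in saline or with olaparib (50 mg/kg, each day for 3 days), and the tumor was injected on the first day with 40 μl of saline or of ADU-S100 (50 μg). All 12 tumors were taken 3 days after the start. Olaparib inhibits the DNA repair enzyme PARP, and ADU-S100, a cyclic dinucleotide, activates the innate immune sensor STING. Vehicle, ADU-S100, Olaparib and Combination (both drugs) each had 3 tumors, each carrying a number that names it below. Ages of the mice, and whether recipients carried pieces of 1 donor tumor, are not given in the sources used here, so p-values measure the spread between these tumors.

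NK cells kill or spare a target according to the sum of activating and inhibitory signals from receptors that are encoded in the germline. Klrk1 encodes NKG2D, an activating receptor that signals through the adaptor Hcst (DAP10), binds stress-induced ligands such as H60 and the ULBP family, and is also carried by many CD8+ T cells. Klrd1 encodes CD94, which pairs with the inhibitory NKG2A (Klrc1) or the activating NKG2C (Klrc2) and recognizes the nonclassical MHC molecule encoded by H2-T23. Ncr1 encodes NKp46, an activating receptor that in tissues is largely restricted to NK cells and related innate lymphoid cells. Klrb1c encodes an activating receptor used as an NK cell marker in some strains, Klrg1 an inhibitory receptor for cadherins such as that of Cdh1, and Klra7 an inhibitory Ly49 receptor for classical MHC class I. The Ly49 genes are a cluster of close paralogs that differ in number between strains, and Klrc1 and Klrc2 are close paralogs too. Probe sequences were not used here, so how well a probe told these copies apart was not tested.

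The genome places 7 of the 8 genes on chromosome 6, in the NK gene complex, and Ncr1 on chromosome 7. RefSeq promoter sequences (build GRCm38.p6) were given for 6 of the 8. Those of Klrk1 and Ncr1 are shown because the values of these 2 activating receptors, described below, looked different over the treatments. That difference was not tested. Each run holds the 250 bases upstream of the annotated start of transcription, 5′ to 3′ on the gene's strand, and lies outside the transcript: chr6:129623865-129624114 on the minus strand for Klrk1 and chr7:4337465-4337714 on the plus strand for Ncr1. Capitals mark the core motif TGTGGT of Runx transcription factors or its reverse complement ACCACA.
Klrk1: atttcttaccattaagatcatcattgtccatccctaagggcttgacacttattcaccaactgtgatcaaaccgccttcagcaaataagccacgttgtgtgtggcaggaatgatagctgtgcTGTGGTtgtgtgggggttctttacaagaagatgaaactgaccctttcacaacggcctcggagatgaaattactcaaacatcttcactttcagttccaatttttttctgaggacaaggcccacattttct
Ncr1: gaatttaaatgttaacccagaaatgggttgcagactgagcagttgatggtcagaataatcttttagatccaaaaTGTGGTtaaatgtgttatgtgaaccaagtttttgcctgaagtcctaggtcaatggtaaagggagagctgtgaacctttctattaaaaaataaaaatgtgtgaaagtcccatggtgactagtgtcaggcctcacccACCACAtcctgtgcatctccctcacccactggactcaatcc
The Klrk1 stretch held the motif once and the Ncr1 stretch on each strand. Among the 6 members with a sequence, 5 held it (Klrb1c, Klrc1, Klrc2, Klrk1 and Ncr1, not Klra7), against 14.2% of all 27025 promoters of this length. This motif was picked for display out of 10 that were searched on both strands, after its matches were seen, and no test was made. Of the other motifs, the ETS core GGAAGT and the STAT site TTCNNNGAA were each in 1 of the 6 (19.99% and 7.18% of all promoters). The T-box site GGTGTGA with its core GGTGTG, the longer ETS site CAGGAAG, the interferon response element, the CRE site TGACGTCA, and the bZIP site TTACGTAA with its looser form TTANGTAA were in none of the 6, and the members of each pair overlap each other. A match is a description of letters and not of a bound factor.

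Each normalized value above a floor of 1 was a whole multiple of 1 scaling factor per tumor, which gave back the counts before scaling. The recovered counts summed to between 106206 (Olaparib 1517) and 1519471 (Vehicle 1269) per tumor, and the factor, which is the normalized value of 1 count, ran from 0.589 (Olaparib 1521) to 10.5 (Olaparib 1517). Combination tumors had factors of 0.810 to 0.824, Vehicle tumors 0.682 to 1.49 and ADU-S100 tumors 1.43 to 2.85, so depth and treatment were not balanced. The 30 other genes with the lowest values had a median of 3 to 8 counts per tumor, and their mean plus 2 SD, between 5.96 and 16.1 counts, was taken as the count background limit of each tumor. On the normalized scale the same limit ran from 8.001 to 62.5, since it is multiplied by the factor. The epithelial markers Epcam, Cdh1 and Muc1 summed to between 10802 and 22177 normalized counts in every tumor. Of the 742 genes that are no members, 69.9% were above the limit in all 12 tumors.

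Klrd1 stood above the count background in all 12 tumors, with 23 to 117 recovered counts, under this limit and the 3 others tried. Klrk1 (7 to 115 counts), Ncr1 (12 to 89) and Klrc1 (6 to 48) were above it in 11 tumors each, and the tumor that missed was Vehicle 1529 for all 3 genes. Klrg1 was above it in 9 tumors with 7 to 21 counts. Klrb1c passed in 5 tumors (5 to 17 counts), Klrc2 in 3 (3 to 27) and Klra7 in 2 (at most 11). In bulk RNA, fewer NK cells and less receptor RNA per cell cannot be told apart. These calls depended on the limit: with more than 20 counts required, Klrd1 remained at 12 tumors, Klrk1 had 7, Ncr1 6, Klrc1 5, Klrg1 and Klrc2 1 each, and Klrb1c and Klra7 0. With the 95th percentile of the 30 lowest genes as the limit, Klrk1 and Ncr1 had 12, Klrc1 and Klrg1 10, Klrb1c 6, Klrc2 3 and Klra7 2. By mean log2 level over the tumors the members ranked between 488 (Klrd1) and 731 (Klra7) of 750, a ranking of probe signals that is not corrected for how well each probe hybridizes.

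**Figure D1:**
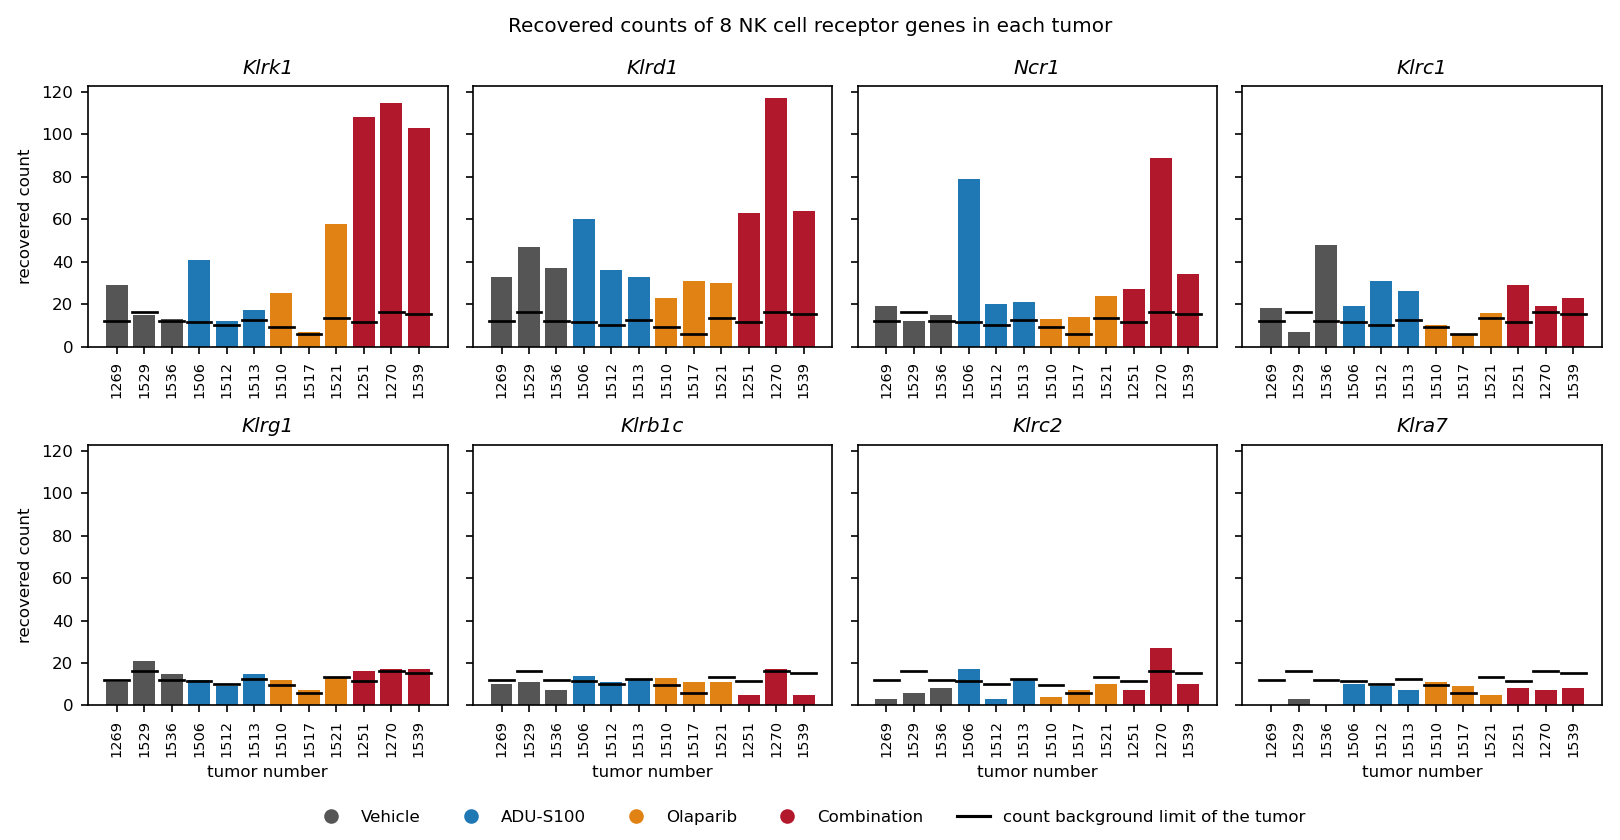
Recovered counts (y axis, before scaling) of the 8 receptor genes in each of the 12 tumors (x axis, tumor number), colored by treatment, with a black line at each tumor's count background limit. Klrk1 reaches 103 to 115 counts in the 3 combination tumors, whereas Klrb1c and Klra7 stay near the line or below it throughout.

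Other markers fixed for NK cells gave a mixed picture of how much NK cell RNA these tumors held. Eomes, a transcription factor of NK and memory T cells, was above the limit in 9 tumors with 2 to 21 counts, and Prf1, which encodes the pore-forming protein perforin, in 5 tumors with 4 to 27 counts. Itga2, an integrin that epithelial cells also carry, had 31 to 237 counts and was above the limit in all 12. Of the 20 other NK receptor genes on the panel, Klra2 (6 to 295 counts), Fcgr3 (14 to 292), Fcgr4 (18 to 190), Slamf7 (8 to 117), Tigit (14 to 62) and Klra4 (12 to 44) were above it in all 12 tumors. Klra3 and Klra15 were above it in 0, but both are among the 30 lowest genes that set the limit. Fcgr3, Fcgr4, Slamf7 and others of these receptors are also carried by myeloid or other immune cells, and which cells the counts came from was not tested. Beside them, 69.9% of the 742 genes that are no members were above the limit in all 12 tumors.

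Klrk1 was the member whose Vehicle tumors did not overlap with any treated group. Its normalized counts were 19.8 in Vehicle 1269, 22.3 in 1529 and 9.01 in 1536. The ADU-S100 tumors had 117 in 1506, 23.6 in 1512 and 24.3 in 1513, and the Olaparib tumors 48.7 in 1510, 73.4 in 1517 and 34.2 in 1521. The Combination tumors had 87.5 in 1251, 94.8 in 1270 and 84.4 in 1539. All 9 treated tumors were above all 3 Vehicle tumors, which held for 1.31% of the 689 genes tested, and the combination was above every Olaparib tumor but below ADU-S100 1506. The mean was 17.0 ± 7.06 (SD, n = 3) in Vehicle and 88.9 ± 5.33 (SD, n = 3) in Combination. The separation from ADU-S100 was narrow, as Vehicle 1529, at 15 counts and below its own background limit, had an exact Poisson 95% interval of 12.5 to 36.8 after scaling, and ADU-S100 1512, at 12 counts, one of 12.2 to 41.2. The Olaparib value of 73.4 rested on 7 counts (exact Poisson 95% interval 2.81 to 14.4, or 29.5 to 151 after scaling, which covers counting error only), while the Combination values rested on 103, 108 and 115 counts.

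Against Vehicle, the log2 fold change of Klrk1 on the log2(normalized count + 1) scale, which understates changes of low genes, was 2.41 ± 0.61 (SE) with the combination, 1.58 ± 0.61 with olaparib and 1.31 ± 0.61 with ADU-S100. None passed the Benjamini-Hochberg threshold in limma (adjusted p = 0.278, 0.577 and 0.809). In the order of the 689 genes by their limma result, Klrk1 took place 3 for the combination against Vehicle and also for all treated tumors against Vehicle, the latter with a log2 fold change of 1.77 ± 0.50 (limma adjusted p = 0.697). The combination exceeded ADU-S100 by 1.10 (95% interval -0.24 to 2.44) and olaparib by 0.83 (-0.51 to 2.17) on the log2 scale. The first difference was 1.85 without ADU-S100 1506 and 0.72 without 1512. The interaction, meaning how much the ADU-S100 effect differed in the presence of olaparib from that in its absence, was -0.48 (-2.37 to 1.41). Without ADU-S100 1506, the fold change with ADU-S100 alone was 0.56 in place of 1.31, and the interaction was 0.27. The tumor numbers begin with 12 or 15, for reasons the labels do not give. Within the numbers from 12, Klrk1 was higher by 2.15 in Combination (2 tumors against 1), and within those from 15 by 2.48 (1 against 2).

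Ncr1 had a single high tumor in each treated group, and no test set it against Klrk1. The normalized counts of Ncr1 were 12.96 in Vehicle 1269, 17.8 in 1529 and 10.4 in 1536. They were 225 in ADU-S100 1506, 39.3 in 1512 and 29.96 in 1513, then 25.3 in Olaparib 1510, 147 in 1517 and 14.1 in 1521. The Combination tumors had 21.9 in 1251, 73.4 in 1270 and 27.9 in 1539. All ADU-S100 and all Combination tumors were thus above all Vehicle tumors, which held for 13.9% and 18.4% of the 689 genes tested. Olaparib 1521 lay within the Vehicle range. Vehicle 1529, at 12 counts and below its own background limit, had an exact Poisson 95% interval of 9.22 to 31.2 after scaling. This covered the values of ADU-S100 1513 and Combination 1251 and 1539. The log2 fold change against Vehicle was 2.19 ± 0.91 (SE) with ADU-S100, 1.43 ± 0.91 with olaparib and 1.35 ± 0.91 with the combination, and none passed in limma (adjusted p = 0.809, 0.582 and 0.825). Without ADU-S100 1506 the first of these was 1.29, without Olaparib 1517 the second was 0.47, and without Combination 1270 the third was 0.83. The combination differed from ADU-S100 by -0.84 (95% interval -2.84 to 1.16) and from olaparib by -0.09 (-2.09 to 1.91). The first of these differences became 0.052 without ADU-S100 1506.

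**Figure D2:**
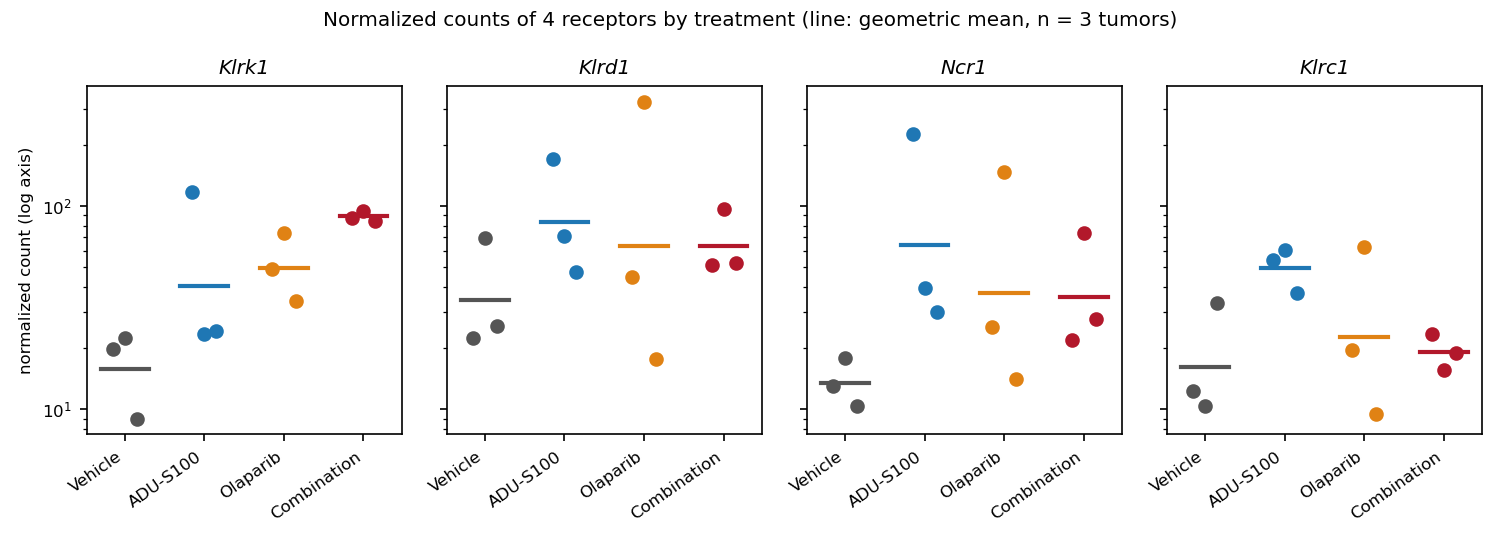
Normalized counts (log axis) of Klrk1, Klrd1, Ncr1 and Klrc1 by treatment, 1 point per tumor (n = 3 per group) and a line at the geometric mean. The 3 combination tumors of Klrk1 lie within 84.4 to 94.8, while Ncr1 and Klrd1 spread widely within the treated groups.

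The values of CD94 and its partners follow. Klrd1 had normalized counts of 22.5, 69.9 and 25.6 in Vehicle 1269, 1529 and 1536, and of 171, 70.7 and 47.1 in ADU-S100 1506, 1512 and 1513. It had 44.8, 325 and 17.7 in Olaparib 1510, 1517 and 1521, and 51.0, 96.5 and 52.5 in Combination 1251, 1270 and 1539. The groups overlapped in every pair. The 325 in Olaparib 1517 came from 31 counts multiplied by a factor of 10.5, and the 17.7 in Olaparib 1521 from 30 counts. The log2 fold changes against Vehicle were 1.25 ± 0.92 (SE) with ADU-S100, 0.88 ± 0.92 with olaparib and 0.87 ± 0.92 with the combination (limma adjusted p = 0.809, 0.716 and 0.962). Without ADU-S100 1506 the first was 0.73, without Olaparib 1517 the second was -0.28, and the third was 0.58 without Combination 1270 or Vehicle 1269 and 1.37 without Vehicle 1529. The difference of the combination from ADU-S100 was -0.38 (95% interval -2.38 to 1.63), and from olaparib -0.01 (-2.02 to 1.995), which was 1.15 without Olaparib 1517. On the recovered count scale the 3 highest values of Klrd1 were the 63, 117 and 64 counts of the Combination tumors, which were also among the most deeply counted.

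Klrc1, the inhibitory partner, had its highest mean under ADU-S100 (50.7 ± 12.3, SD, n = 3) beside 18.6 ± 12.7 in Vehicle and 19.3 ± 3.94 in Combination. Its normalized counts were 12.3, 10.4 and 33.3 in Vehicle 1269, 1529 and 1536, and 54.1, 60.9 and 37.1 in ADU-S100 1506, 1512 and 1513. They were 19.5, 62.9 and 9.43 in Olaparib 1510, 1517 and 1521, and 23.5, 15.7 and 18.9 in Combination 1251, 1270 and 1539. All 3 ADU-S100 tumors were above all Vehicle and all Combination tumors. The log2 fold change against Vehicle was 1.55 ± 0.64 (SE) with ADU-S100, 0.47 ± 0.64 with olaparib and 0.21 ± 0.64 with the combination (limma adjusted p = 0.809, 0.767 and 0.989). The value with olaparib was -0.24 without Olaparib 1517 and 1.06 without 1521, and that with the combination ran from -0.086 to 0.71 without Vehicle 1529 or 1536. The 62.9 of Olaparib 1517 rested on 6 counts. Klrc2, the activating partner, was near the count background in most tumors, and it was above the limit in ADU-S100 1506 (17 counts), Olaparib 1517 (7 counts) and Combination 1270 (27 counts). Its log2 fold changes were 1.65, 1.504 and 0.95 in the same order of treatments, with limma adjusted p-values of 0.809, 0.587 and 0.960. They were 0.94 without ADU-S100 1506, 0.42 without Olaparib 1517 and 0.43 without Combination 1270.

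Klrg1, Klrb1c and Klra7 gave normalized values that rested on few counts. Klrg1 had 11, 21 and 15 counts in the Vehicle tumors, 12, 9 and 15 under ADU-S100, 12, 7 and 13 under olaparib, and 16, 17 and 17 in Combination. Klrb1c had 10, 11 and 7 counts in Vehicle, 14, 11 and 12 under ADU-S100, 13, 11 and 11 under olaparib, and 5, 17 and 5 in Combination. For Klra7, Vehicle 1269 and 1536 were at the deposited floor, which stands for 0 or 1 count, Vehicle 1529 had 3 counts, and the 9 treated tumors had 5 to 11. In counts, which are not scaled for depth, the treated tumors were thus above the Vehicle tumors for Klra7. Only 2 of the treated tumors, Olaparib 1510 and 1517, exceeded their own background limit for this gene. After scaling, treated and Vehicle tumors overlapped, as Klra7 was 2.95 in Olaparib 1521 and 4.46 in Vehicle 1529. The exact Poisson intervals of their 5 and 3 counts, 1.62 to 11.7 and 0.619 to 8.77, overlapped too. The log2 fold changes of Klrg1 against Vehicle were 0.75 with ADU-S100, 0.78 with olaparib and 0.00 with the combination, and those of Klrb1c were 1.47, 1.62 and -0.35. The fitted values for Klra7 were 2.70, 2.86 and 1.38, which depended on the pseudocount (the value with olaparib was 1.53 with a pseudocount of 10) and are no bounds. None of these 9 passed in limma (adjusted p from 0.577 to 0.999). Without Olaparib 1517, the values with olaparib became -0.0082 for Klrg1, 0.60 for Klrb1c and 1.75 for Klra7. Without Vehicle 1269 or 1529, Klrg1 was 0.36 or 1.32 with ADU-S100, and Klrb1c in the combination ran from -0.87 to 0.11 with a tumor left out. The interaction was -4.19 ± 1.31 (SE) for Klra7 and -3.43 ± 1.24 for Klrb1c, with a limma adjusted p of 0.346 for both. Without Olaparib 1521 these interactions were -5.38 and -4.39 and passed (limma adjusted p = 0.0128 and 0.0246), as did Klra7 with olaparib at 4.05 (limma adjusted p = 0.0126). In those fits 12.5% of the 689 genes passed in the interaction and 7.98% with olaparib.

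The normalized values of the low receptors moved with the scaling factor. Over the 12 tumors, Pearson's r between the log2 normalized value and the log2 factor was 0.94 for Klrb1c, 0.94 for Klrg1, 0.92 for Klra7, 0.85 for Klrd1, 0.77 for Klrc2, 0.74 for Ncr1, 0.68 for Klrc1 and 0.31 for Klrk1, beside a median of 0.63 over all panel genes. These r describe values that contain the factor itself and are given without a test. Only Klra7 and Klrb1c also had log2 counts that correlated positively with the factor (0.48 and 0.34), while the median gene had -0.75. With the factor as a covariate, the combination effect on Klrk1 was 2.45 and the adjusted p in limma 0.0631, whereas the effects of olaparib on Klrd1 and Klrg1 changed sign (-0.59 and -0.32). The part of depth in the values of the other receptors was not tested beyond this.

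**Figure D3:**
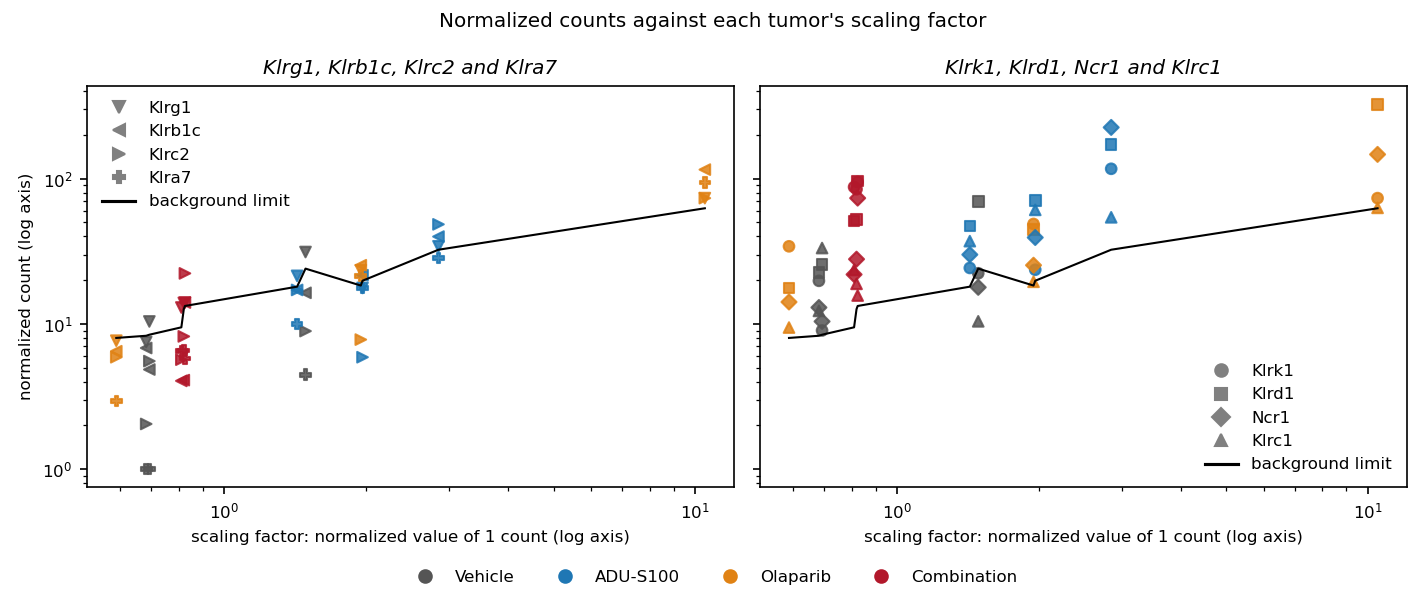
Normalized counts (y, log axis) of the 4 lower receptors (left) and the 4 higher receptors (right) against the scaling factor of each tumor (x, log axis), with symbols for genes, colors for treatments and a black line that joins the background limits of the tumors. The lower receptors climb with the line, and the combination values of Klrk1 (84.4 to 94.8) stand far above it at factors of 0.810 to 0.824.

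A gene was tested if it had at least 20 normalized counts in at least 3 tumors. Klra7 met this through 1 ADU-S100 and 2 Olaparib tumors, and Klrb1c, Klrc2 and Ncr1 also met it without a Vehicle tumor, so the counts below describe the members and are not support for a difference. Counted over the 8 members, none passed the adjusted threshold in any of 7 comparisons, nor did any of the 689 genes tested (0.0% called). At an unadjusted limma p below 0.05, 3 members were higher with ADU-S100 (Klra7, Klrc1 and Ncr1, against 4.64% of all genes), 2 with olaparib (Klra7 and Klrk1, against 5.81%) and 1 with the combination (Klrk1, against 7.55%), all relative to Vehicle. The same members were called when all 750 genes were fitted without the filter, beside 5.6%, 6.27% and 7.07% of those genes. With all treated tumors set against Vehicle there were 3 (Klra7, Klrk1 and Ncr1, against 5.95%). Klrb1c was lower in the combination than with olaparib at this level (log2 difference -1.96, which was -0.95 without Olaparib 1517, against 2.76% of all genes), and Klra7 and Klrb1c had interactions below 0 (9.0%). Counting groups that did not overlap, 5 members were above Vehicle under ADU-S100 (Klra7, Klrb1c, Klrc1, Klrk1 and Ncr1, against 13.9% of all genes), 1 under olaparib (Klrk1, against 3.77%) and 3 under the combination (Klra7, Klrk1 and Ncr1, against 18.4%). In the combination, 4 members were below all ADU-S100 tumors (Klra7, Klrb1c, Klrc1 and Klrg1, against 20.9%), and Klrk1 alone was above all Olaparib tumors (11.0%). These comparisons share tumors, so their counts are not separate evidence.

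The median log2 fold change of the 8 members was 1.51 with ADU-S100, 1.47 with olaparib and 0.91 with the combination, against 0.48, 0.50 and 0.20 over all 750 genes, all fitted without the filter. Without Olaparib 1517 the member median with olaparib was 0.44, and that of the 689 genes kept by the filter 0.087 in place of 0.45. Without ADU-S100 1506 the member median with ADU-S100 was 1.03, and that of the 689 genes 0.16 in place of 0.44. The member median with the combination was 0.50 without Combination 1270 and 0.53 without Vehicle 1269. In the fit without the filter, the 16 measured genes of a list of candidate background genes, such as testis genes and cytokines of other tissues, had medians of 0.88, 0.95 and -0.23. The list also held the interferon genes Ifna4 and Ifnl2, so it need not be free of a treatment response. The median interaction was -2.004 for the members, -2.16 for these 16 genes and -0.66 for all genes, and that of the members was -1.11 without Olaparib 1517. The normalized values of low genes move with the factor, as described above. As an alternative, the median count of the 30 lowest genes was subtracted in each tumor. After this the combination effect on Klrk1 was 2.86, with a limma adjusted p of 0.269.

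**Figure D4:**
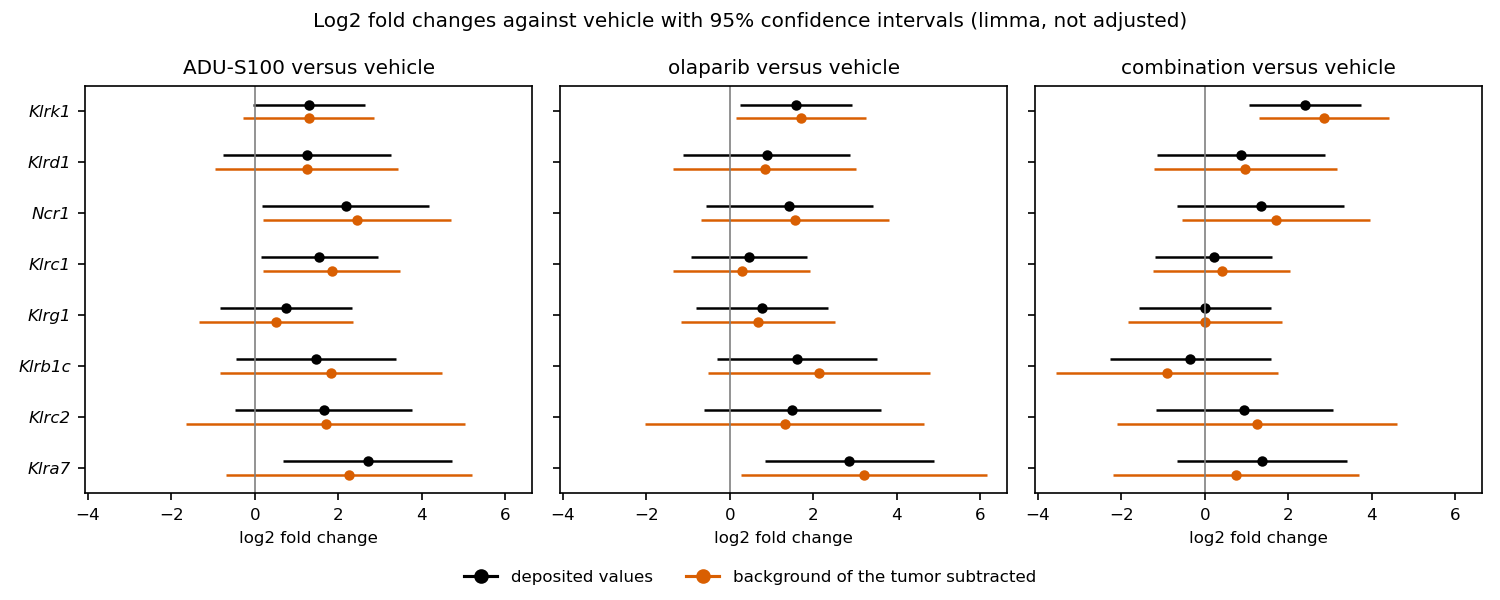
Log2 fold changes of the 8 receptors against vehicle (x axis) for ADU-S100, olaparib and the combination, with unadjusted 95% confidence intervals from limma (n = 3 tumors per group), on deposited values (black) and after subtracting each tumor's background (orange). In the combination only the interval of Klrk1 lies clear of 0, around 2.41.

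Of 13 measured ligand genes, 0 passed the adjusted threshold or an unadjusted limma p below 0.05 in any comparison with Vehicle. H2-T23, the ligand of CD94 receptors, had 1087 to 16949 counts, with a log2 fold change of 1.12 ± 0.57 (SE) with the combination (limma adjusted p = 0.652). H60a, a ligand of NKG2D, had a log2 fold change of 0.16 ± 0.47 with the combination (limma adjusted p = 0.989) and 10 to 106 counts. Cdh1, the ligand of KLRG1, had 550 to 11254 counts and a log2 fold change of 0.06 ± 0.36 (limma adjusted p = 0.989). The lists that follow are described over all their measured genes, in the fit without the filter, in which 79.7%, 76.4% and 64.4% of all 750 genes had positive fold changes with ADU-S100, olaparib and the combination against Vehicle. Among 13 measured adaptors and kinases of the receptors, 0 passed the adjusted threshold, and 12, 11 and 12 had positive fold changes in the same order. Hcst, the adaptor of NKG2D, had a log2 fold change of 0.53 ± 0.86 with the combination and 1.83 ± 0.86 with ADU-S100 (limma adjusted p = 0.989 and 0.809).

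Of 13 measured cytotoxic effector genes, 12, 12 and 13 had positive fold changes with ADU-S100, olaparib and the combination (medians of 1.13, 0.97 and 1.23), with 0 past the adjusted threshold. An unadjusted limma p below 0.05 was reached by 2 of them in each comparison, beside 5.6%, 6.27% and 7.07% of all 750 genes in the upward direction. Of 11 T cell markers, 10, 10 and 11 were positive (medians of 0.87, 0.92 and 1.24), with 2, 1 and 4 at an unadjusted p below 0.05 and 0 past the adjusted threshold. Summed over 11 measured T cell markers, normalized counts were 124 to 271 in Vehicle, 244 to 564 with ADU-S100, 158 to 775 with olaparib and 381 to 614 in Combination. This sum was thus above all Vehicle tumors in every combination tumor, which held for 18.4% of the 689 genes tested when taken singly. Of the 9 T cell markers tested, 5 did so, and Cd3d and Cd28 were among those that overlapped. Klrk1 is also carried by CD8+ T cells. The part of T cells in the Klrk1 values was not tested. Of 5 stromal markers, 4 were negative with ADU-S100 and 5 with olaparib and with the combination, with medians of -0.38, -1.73 and -1.23. Of these, 0, 4 and 1 reached an unadjusted limma p below 0.05, beside 0.133%, 1.33% and 0.133% of all 750 genes in the downward direction, and 0 passed the adjusted threshold.

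The other lists had 0 genes past the adjusted limma threshold against Vehicle as well. Of 16 cytokine and cytokine receptor genes that sustain or activate NK cells, 15, 15 and 11 had positive log2 fold changes with ADU-S100, olaparib and the combination (medians of 0.42, 0.96 and 0.74), and 1 reached an unadjusted limma p below 0.05 in each, both near the shares over all genes in the combination. Of 6 transcription factors of NK cells, 6, 5 and 5 were positive, with medians of 0.61, 1.15 and 0.31, and 1, 1 and 0 did so. Of 12 genes for the recruitment of NK cells, 10, 9 and 11 were positive, with medians of 0.80, 0.56 and 1.11, and 1, 3 and 4 reached an unadjusted limma p below 0.05. Of 20 other NK receptors, 19, 19 and 13 were positive, with medians of 0.92, 0.89 and 0.26, and 1, 2 and 3 did so. Over all 750 genes the upward shares at this level were 5.6%, 6.27% and 7.07%. Of 6 macrophage markers 6, 2 and 2 were positive, of 6 B cell markers 6, 5 and 4, of 3 general leukocyte markers 3, 2 and 2, and of 3 epithelial markers 2, 2 and 3.

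For the 5 receptors above the count background in at least 6 tumors, the genes whose log2 values were most like theirs over the 12 tumors were found by Pearson's r, as a description without a test, since all share depth and treatment. For Klrk1 they were the interferon-induced chemokine Cxcl9 (r = 0.95), the receptor Slamf7 (0.93) and the interferon-induced GTPase Gbp5 (0.92), and after scaling all tumors to equal medians they were the same 3 genes. For Ncr1 they were Gzma, which encodes granzyme A (0.96), Prf1 (0.93) and Il2rb, a chain of the interleukin receptors that sustain NK cells (0.93), again the same 3 after scaling to equal medians. For Klrd1 they were Cd3d (0.96), a chain of the T cell receptor complex, Amica1 (0.95) and Pparg (0.95), of which 2 remained. The lists for Klrc1 (Ppbp, Il5ra and Ifna4) and Klrg1 (Cd79a, Cd55 and Il11ra1) kept only 1 gene each. Between Klrk1 and Ncr1 themselves r was 0.70, and 0.46 after scaling to equal medians, against 0.91 and 0.81 between Klrd1 and Ncr1. Ncr1 and its 3 neighbors had their highest values in ADU-S100 1506, whereas Klrk1 was also high in each Combination tumor.

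**Figure D5:**
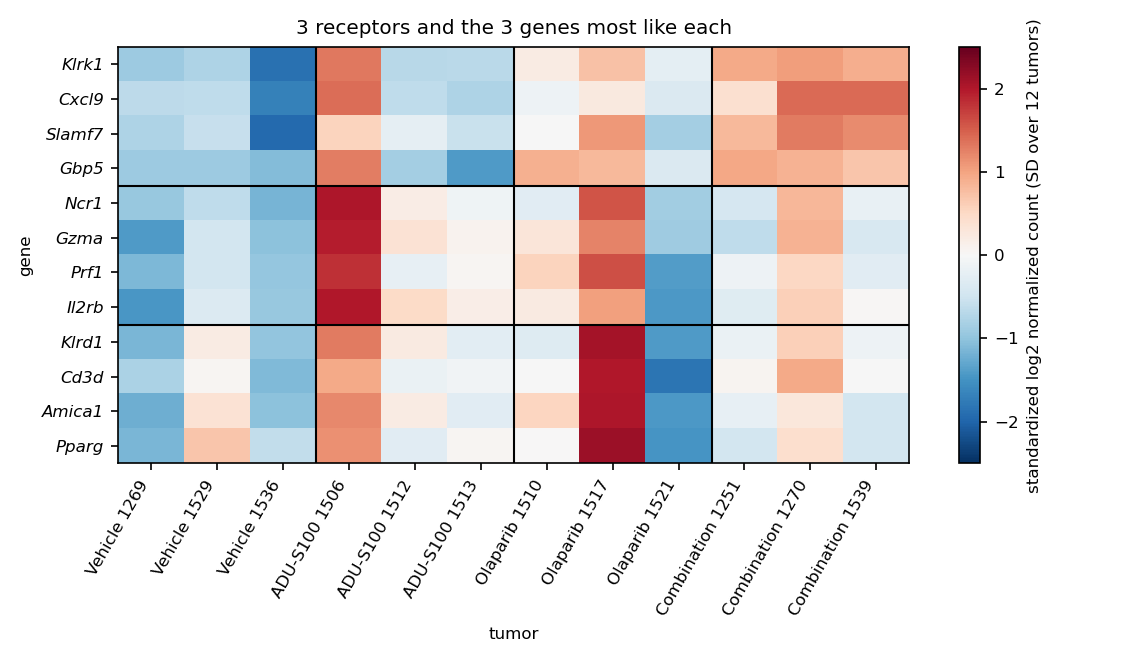
Log2 normalized counts of Klrk1, Ncr1 and Klrd1 with the 3 genes most like each (rows), standardized over the 12 tumors (columns, ordered by treatment). The block of Klrk1 is high in all 3 combination tumors and ADU-S100 1506, that of Ncr1 is highest in ADU-S100 1506, and that of Klrd1 in Olaparib 1517.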

How the data were processed

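RNA (100 ng) of 12 tumors was measured on the nCounter panel. The authors deposited a signal, namely normalized counts on a linear scale, made with nSolver 4.0 from raw counts that passed quality control, were corrected for background and were scaled by positive controls and by housekeeping genes, with raw counts below the negative controls discarded. Control genes were not analysed here, so these steps were not repeated. The members and the gene lists were chosen with earlier results of these data known. Counts were recovered by dividing by each tumor's step, a value being taken as whole within 0.01 of a count or a millionth of itself, whichever was larger, and 100% were. A value at the floor of 1 was set to 0 counts. The recovery returned 100% of simulated counts.

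Log2(normalized count + 1) of the 689 genes with at least 20 in at least 3 tumors was fitted with limma 3.58.1 in R 4.3.3, one mean per group over 12 tumors, two-sided, and p-values were adjusted by Benjamini-Hochberg over all 689. On simulated data for the combination against Vehicle over 689 genes, with 200 changed, limma recovered 59.5% of log2 changes of 2 and 0% of changes of 1, and made 0 calls with nothing changed. Alternatives were another pseudocount, filters, scalings, variance and sample choices, a block for the tumor number series, the methods' t-test, the factor as a covariate, background subtraction, edgeR 4.0.16 (quasi-likelihood test) on recovered counts, 3 other background limits, and leaving out each tumor. All 56 member fold changes (8 genes in 7 comparisons) were followed through these alternatives. Gene lists were described over all measured genes in the fit without the filter, a choice made after the data were seen. Named were the members, up to 4 genes of highest mean per list, the genes that the receptors bind or signal through, the genes most like each of 5 members, and the smallest p of each comparison. Other genes given with counts or as counts of a list were named after their values were seen. Of the panel's symbols, 736 are current in the RefSeq table. Figures were drawn with matplotlib.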

Additional observations from a re-analysis of the deposited data

How the results depend on the processing

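Of 708 values of 56 member fold changes under 14 other settings, 657 kept their direction and side of the threshold, 50 changed sign and 1 passed (Klra7, combination against Vehicle, 1.51 with the factor as a covariate, limma adjusted p = 0.0440). The combination effect on Klrk1 was 1.80 to 2.86 under those settings and 2.03 to 2.64 with a tumor left out, and its adjusted p ranged from 0.0631 to 1.0. The cause of the changes below was not tested. Each group had 3 tumors, and several receptors had counts near the background limit. How far low counts limited detection of these receptors was not tested.

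With the factor as a covariate, olaparib against Vehicle became -0.23 for Klrc1, -0.59 for Klrd1 and -0.32 for Klrg1. ADU-S100 against Vehicle became -0.012 for Klrd1 and -0.19 for Klrg1. The combination against ADU-S100 became 1.01 for Klrd1 and 0.31 for Ncr1, that against olaparib 1.59 for Klrd1 and 1.23 for Ncr1, and the Klrk1 interaction 0.55. Under the same covariate the combination against ADU-S100 became 0.12 for Klra7, 0.47 for Klrc2 and 0.29 for Klrg1, that against olaparib 0.18 for Klra7, 0.51 for Klrc1, 0.80 for Klrc2 and 0.42 for Klrg1, all treated against Vehicle -0.14 for Klrg1, and the interaction 0.20 for Klrc2, 1.60 for Klrd1, 0.61 for Klrg1 and 0.090 for Ncr1. After quantile normalization, olaparib against Vehicle was -0.44 for Klrc1 and -0.094 for Klrg1, ADU-S100 against Vehicle -0.23 for Klrg1, the combination against Vehicle -0.12 for Klrc1 and -0.21 for Klrg1, the combination against olaparib 0.072 for Ncr1, and the Klrk1 interaction 0.61. The combination against ADU-S100 was 0.018 for Klrc2 and 0.013 for Klrg1 there, that against olaparib 0.32 for Klrc1 and 0.087 for Klrc2, the Klrg1 interaction 0.11, and all treated against Vehicle -0.18 for Klrg1. In edgeR with TMM normalization, Klrc1 was -0.38 with olaparib and -0.41 with the combination, Klrg1 -0.43 with the combination, Ncr1 0.16 between the combination and olaparib, and Klrg1 -0.010 in all treated tumors. With equal medians, Klrg1 was -0.20 in the combination, Klrd1 and Ncr1 0.13 and 0.056 against olaparib, and the Klrk1 interaction 0.073. Klrg1 in the combination was -0.052 with a pseudocount of 10 and -0.21 in edgeR with the authors' factors. After background subtraction, the combination against olaparib was 0.13 for Klrd1, 0.14 for Ncr1 and 0.12 for Klrc1, and with the number series as a block it was 0.14 for Klrd1.

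With a tumor left out, the sign changed within these ranges: Klrb1c in the combination -0.87 to 0.11, Klrc1 with olaparib -0.24 to 1.06 and in the combination -0.086 to 0.71, Klrd1 with olaparib -0.28 to 1.79, and Klrg1 with olaparib -0.0082 to 1.54 and in the combination -0.39 to 0.57. The combination against ADU-S100 ranged from -0.78 to 0.14 for Klrd1, -1.38 to 0.052 for Ncr1 and -1.41 to 0.011 for Klrc2, that against olaparib from -0.92 to 1.15 for Klrd1, -0.77 to 0.88 for Ncr1, -0.85 to 0.46 for Klrc1, -1.18 to 0.53 for Klrc2 and -1.54 to 0.0098 for Klrg1, and the Klrk1 interaction from -0.86 to 0.27.

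Genes past the adjusted threshold, 0 in limma as reported, were 1 for the combination against ADU-S100 with a pseudocount of 10, a filter of 50, equal medians, quantile normalization or an intensity trend, and 2, 3 and 4 for the combination against Vehicle when only those 2 groups were fitted, by the methods' t-test after Benjamini-Hochberg correction and with the factor as a covariate. With the Benjamini-Yekutieli adjustment that a legend of the study names, the same t-test called 0 (lowest adjusted p = 0.120). Leaving out a tumor gave 0 to 55 for olaparib against Vehicle, 0 to 54 for the combination against olaparib and 0 to 86 for the interaction, the highest without Olaparib 1521, and 0 to 1 for the combination against ADU-S100, the 1 without ADU-S100 1506. Without Olaparib 1521, Klra7 passed with olaparib (4.05) and in the interaction (-5.38), Klrb1c in the interaction (-4.39), and both in the combination against olaparib (-2.67 and -2.92). Without Olaparib 1517 these last 2 were -0.37 and -0.95. Counts at an unadjusted limma p below 0.05 were 33, 50, 53, 63, 50, 75 and 43 genes for ADU-S100, olaparib and the combination against Vehicle, the combination against ADU-S100 and against olaparib, the interaction and all treated against Vehicle. In edgeR, 0 genes passed in all 7 comparisons with the authors' factors or with TMM.

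Tumors above background were 0 for Klra7 and Klrb1c, 5 for Klrc1, 1 for Klrc2, 7 for Klrk1 and 12 for Klrd1 under a limit of 20 counts and under one from the candidate background list, and 1 and 0 for Klrg1 and 6 and 7 for Ncr1 under these limits. No paired analysis was possible because the groups share no tumor number.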
